A study of Homo sapiens with 2 samples.

Results

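The Hippo pathway and the targets of its effectors were examined as 39 genes, all present among the 54261 features of the count table. They were taken by symbol and comprise the kinases and adaptors of the pathway, the co-activators YAP1 and WWTR1 (TAZ), the 4 TEAD transcription factors and a set of YAP/TEAD target genes. CTGF and CYR61 are the older symbols of CCN2 and CCN1. Of the 39 genes, 35 were measured, meaning that they reached 1 CPM (reads of the gene scaled to the library's size) in at least 1 library. AMOTL1, ANKRD1, NUAK2 and RBMS3 did not and are given by their reads.

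The Hippo pathway is a kinase cascade that restrains growth. STK3 and STK4 (MST2 and MST1), with the scaffold SAV1, activate LATS1 and LATS2 and their MOB1 partners, and LATS kinases phosphorylate YAP1 and WWTR1, which are then held in the cytoplasm or degraded. Unphosphorylated YAP1 and WWTR1 enter the nucleus, bind TEAD factors and switch on genes for matrix, cytoskeleton and survival, and in the intestine YAP1 is known for its part in regeneration and in colorectal tumours. Activity is set largely by phosphorylation and localisation, which RNA counts do not record.

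The data were 2 RNA-seq libraries of RKO, an established human colorectal carcinoma line, with 1 library per group. The control library came from wild-type RKO cells transfected with the control siRNA, siNC, and the siHNRNPM library from RKO cells transfected with siRNA against HNRNPM, which encodes an RNA-binding splicing regulator. Reads in genes totalled 13056118 for siHNRNPM and 19931360 for the control. With no replicates, no difference below has a replicate check, and each bracketed range is a 95% interval for counting error only. A gene is called higher or lower when its interval excludes a ratio of 1.

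HNRNPM had 1042 reads (79.6 CPM) with siHNRNPM and 2870 (144 CPM) in the control, or 55.2% of the control level. Of 11 colon epithelial markers, 4 were measured, namely EPCAM, KRT8, KRT18 and CDX2, and 4 had 0 reads in each library. EPCAM and KRT8 were higher with siHNRNPM, at log2 ratios of 0.36 (0.04 to 0.68) and 0.32 (0.14 to 0.50). CDX2 was lower at -0.40 (-0.75 to -0.05), and the interval of KRT18 spanned a ratio of 1, at 0.06 (-0.12 to 0.24). KRT20, CDX1 and CEACAM5 had 0 reads in both, and CDH1 had 1 and 10. Liver markers differed between the libraries, with 464 reads over 18 genes in the siHNRNPM library and 21 in the control. Nearly all of the siHNRNPM reads came from ALB, AFP and SERPINA1, with 77, 174 and 177. In the control these genes had 0, 1 and 6 reads. The 3 that were measured were higher, while APOA1, TTR, FGG, RBP4 and HP had 0 reads in both libraries. Fibroblast markers summed to 3.59 CPM with siHNRNPM and 1.56 CPM in the control (47 and 31 reads over 7 genes), and the 2 that were measured, COL1A1 and COL1A2, were higher, at log2 ratios of 1.30 (0.23 to 2.42) and 1.41 (0.06 to 2.87). Endothelial markers summed to 0.688 and 0.905 CPM over 4 genes, and none was measured. Of the blood cell markers CD68 alone was measured and was higher, with 11579 reads (885 CPM) and 15206 (765 CPM), while PTPRC and CD3E had at most 2 reads in either library. The part of these markers in the results below was not tested.

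Most measured genes of the group were slightly lower in the siHNRNPM library. Of the 35 measured, 20 were lower (57.1%), 6 were higher (17.1%) and 9 had an interval on both sides of 1. Over all 12925 genes measured, 26.1% were lower and 22% higher. Deeply read genes have narrow intervals, and among 9469 genes averaging 10 CPM or more the shares were 30.9% and 23.5%. The median log2 ratio of the 35 genes was -0.16 (quartiles -0.28 and -0.02), against -0.01 over all genes (quartiles -0.21 and 0.18). The differences were small. None of the 35 was at least 2-fold lower or higher, against 1.49% and 2.45% of all genes, and 2 were at least 1.5-fold lower (5.71%) and 0 at least 1.5-fold higher, against 4.56% and 5%. Large ratios were rarer among deeply read genes. Of the 9469 genes averaging 10 CPM or more, 21 were at least 2-fold lower and 29 at least 2-fold higher. At 1.5-fold these counts were 238 and 144. Of the 34 members at that depth, 1 was at least 1.5-fold lower and 0 at least 1.5-fold higher.

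**Figure D1:**
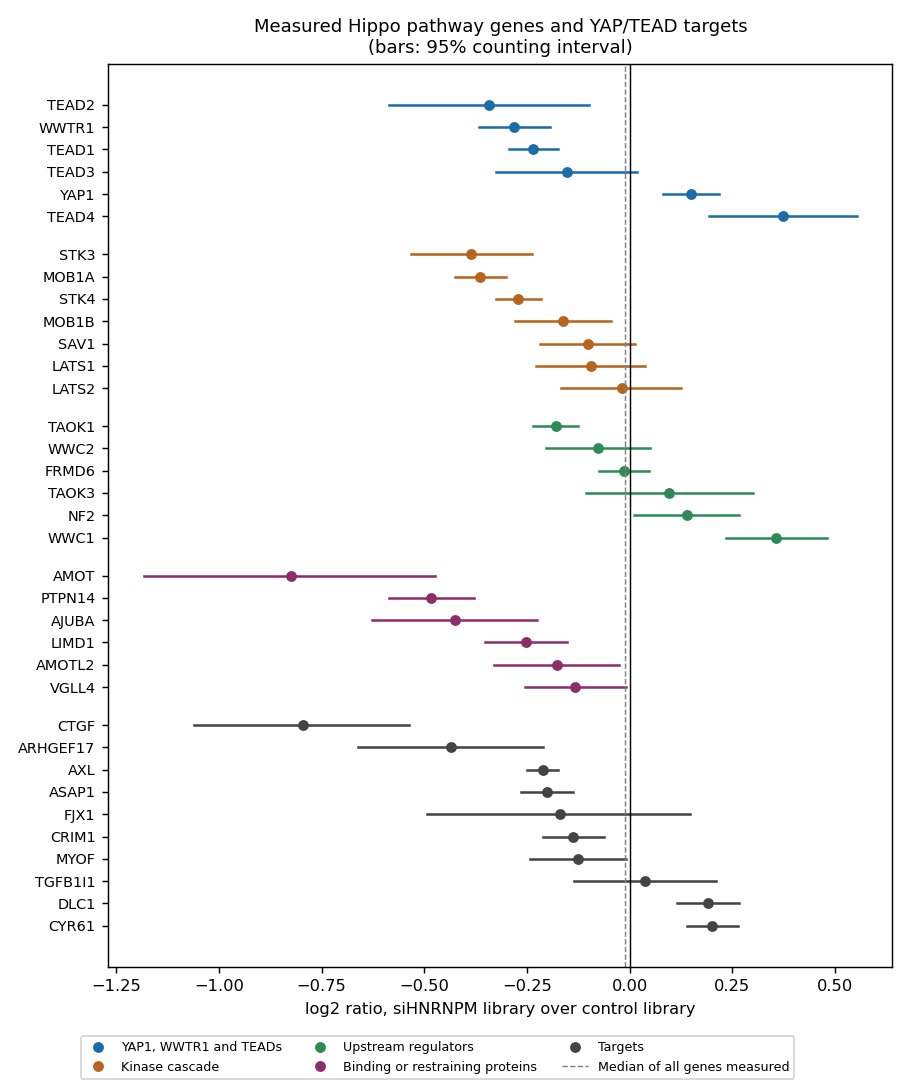
Log2 ratio (siHNRNPM over control) for each of the 35 measured genes, grouped by role, with bars for the 95% counting interval and a dashed line at the median of all genes measured. All 6 measured binding or restraining genes lie to the left of 0 with their intervals, AMOT and CTGF lie farthest left at -0.82 and -0.80, and TEAD4 lies farthest right at 0.37.

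**Figure D2:**
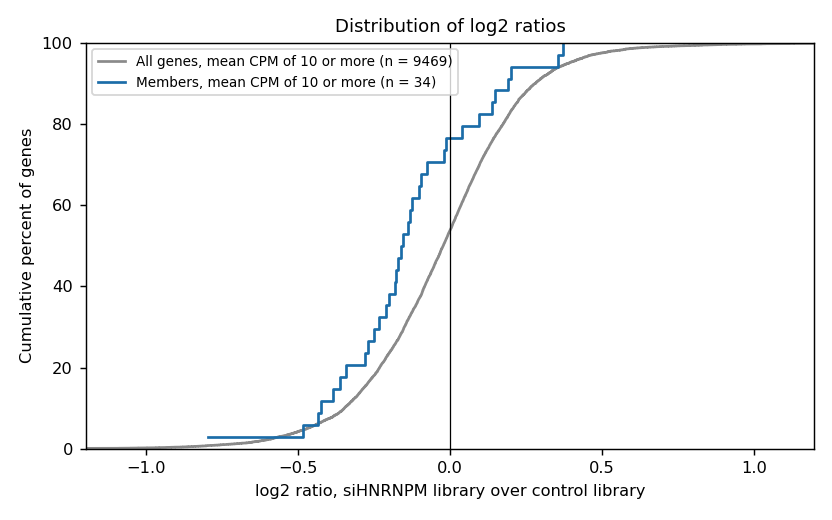
Cumulative share of genes by log2 ratio, for the 34 members and the 9469 genes averaging 10 CPM or more. The members' curve lies left of that of all genes over most of its range, with medians of -0.16 and -0.02.

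The co-activators differed in direction. YAP1 had 2983 reads (228 CPM) with siHNRNPM against 4088 (206 CPM) in the control, the order kept below, a log2 ratio of 0.15 (0.08 to 0.22). WWTR1, its paralogue, had 1690 (129 CPM) and 3119 (157 CPM), a log2 ratio of -0.28 (-0.37 to -0.19). YAP1 was thus slightly higher and WWTR1 slightly lower. The difference between their log2 ratios, which does not depend on library scaling, was 0.43 (0.32 to 0.54). Levels of different genes are compared here as CPM per kilobase of exon. The length joins all annotated exons of a gene, whichever transcripts the cells make. Shares and rankings between genes therefore depend on the annotation, as for STK3, with 12597 bases. Per kilobase of exon, YAP1 made up 63.7% of its pair with WWTR1 in the control library and 70.2% in the siHNRNPM library, while their sum was 51.3 and 51.6.

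TEAD factors carry the DNA-binding domain through which YAP1 and WWTR1 reach their targets. TEAD4 was the one TEAD gene that was higher, with 475 reads (36.3 CPM) against 557 (28.0 CPM) and a log2 ratio of 0.37 (0.19 to 0.55). TEAD1 had 3550 reads (271 CPM) against 6345 (319 CPM), a log2 ratio of -0.23 (-0.29 to -0.17). TEAD2 had 213 (16.3 CPM) against 410 (20.6 CPM), a log2 ratio of -0.34 (-0.59 to -0.10). TEAD1 and TEAD2 were thus lower. The interval of TEAD3 spanned a ratio of 1, with 445 and 752 reads and a log2 ratio of -0.15 (-0.33 to 0.02). The log2 ratio of TEAD4 exceeded that of TEAD1 by 0.61 (0.42 to 0.80), of TEAD2 by 0.72 (0.41 to 1.02) and of TEAD3 by 0.53 (0.28 to 0.78). TEAD3 and TEAD1 differed by 0.08 (-0.10 to 0.26). Per kilobase of exon, TEAD1 was the most abundant in both libraries, at 49.5% of the family in the control and 44.7% in the siHNRNPM library, and TEAD4 went from 19.7% to 27.1%. TEAD2 was the least abundant, at 11.03% and 9.26%.

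**Figure D3:**
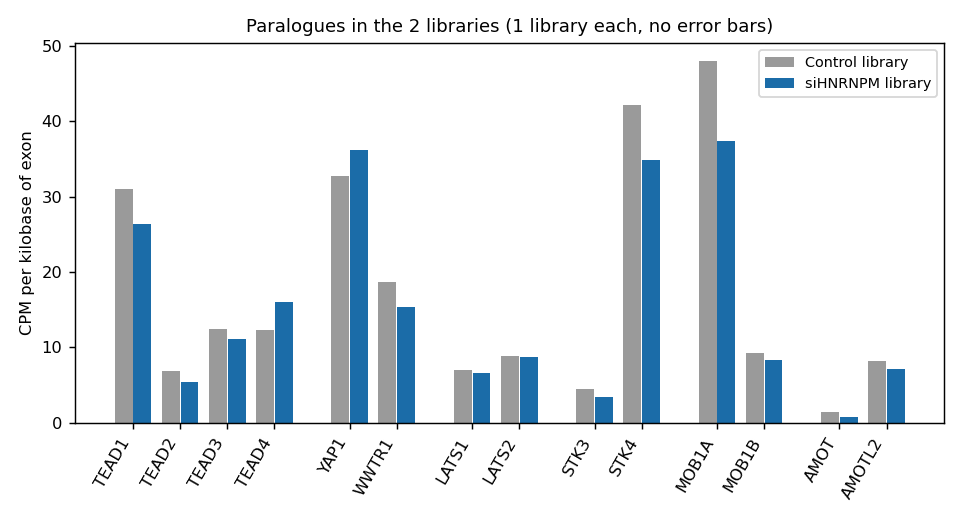
CPM per kilobase of exon for 6 families of paralogues in the control (grey) and siHNRNPM (blue) libraries, with 1 library each and so no error bars; AMOTL1, with 7 reads in each library, is not drawn. YAP1 and TEAD4 are the bars that are taller in the siHNRNPM library.

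In the kinase cascade, 4 of 7 genes were lower, 0 were higher and 3 spanned a ratio of 1. Among all genes averaging 10 CPM or more, 30.9% were lower and 23.5% higher. STK4, a Ste20-like kinase that phosphorylates LATS, had 4143 reads (317 CPM) against 7595 (382 CPM), a log2 ratio of -0.27 (-0.33 to -0.22). STK3, its paralogue, had 568 (43.4 CPM) against 1127 (56.7 CPM), a log2 ratio of -0.39 (-0.53 to -0.24). MOB1A, a co-activator of LATS kinases, had 3144 (240 CPM) against 6144 (309 CPM), a log2 ratio of -0.36 (-0.43 to -0.30). These 3 genes were lower, as was MOB1B at -0.16 (-0.28 to -0.05), from 954 and 1622 reads. Exons of MOB1B share bases with those of DCK on the same strand in GENCODE 29, where reads can be assigned to either gene, and DCK had 837 and 1218 reads. The kinases that act directly on YAP1 differed least. LATS1 had 746 and 1210 reads and a log2 ratio of -0.09 (-0.23 to 0.04), and LATS2 had 635 and 978 reads and -0.02 (-0.17 to 0.13). SAV1, the scaffold that joins STK3/4 to LATS, had 987 and 1610 reads and -0.10 (-0.22 to 0.01). Its exons share bases with those of ATL1 on the opposite strand, which had 54 and 55 reads. Per kilobase of exon, STK4 made up 90.3% of the STK3 and STK4 pair in the control library and 91.0% in the siHNRNPM library, and MOB1A 83.8% and 81.8% of the MOB1 pair.

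The upstream regulators were mixed, with 2 higher, 1 lower and 3 spanning a ratio of 1. The shares among all genes averaging 10 CPM or more were 23.5% higher and 30.9% lower. WWC1 (KIBRA), a scaffold that brings LATS to the membrane, was the highest of them, with 1003 reads (76.6 CPM) against 1190 (59.85 CPM) and a log2 ratio of 0.36 (0.23 to 0.48). NF2 (merlin), the tumour suppressor that recruits LATS, had 862 (65.9 CPM) against 1189 (59.8 CPM), a log2 ratio of 0.14 (0.01 to 0.27). Its interval spanned a ratio of 1 when the control library was thinned to the depth of the siHNRNPM library. TAOK1, a kinase that phosphorylates STK3 and STK4, was lower, with 4250 (325 CPM) against 7315 (368 CPM) and a log2 ratio of -0.18 (-0.23 to -0.13). TAOK3 had 342 and 486 reads and a log2 ratio of 0.10 (-0.11 to 0.30). FRMD6, a FERM-domain protein, had 3628 and 5565 reads and -0.01 (-0.07 to 0.05). The paralogues WWC1 and WWC2 differed by 0.43 (0.26 to 0.61), since WWC2 had -0.08 (-0.20 to 0.05) from 830 and 1330 reads.

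All 6 measured genes for proteins that bind YAP1 or restrain LATS or TEAD were lower, with a median log2 ratio of -0.34. Over all genes measured 26.1% were lower, and 30.9% among those averaging 10 CPM or more. The role joins proteins that act on YAP1, LATS or TEAD, so this count gives no direction of pathway activity. Angiomotin (AMOT), which tethers YAP1 at junctions and in the cytoplasm, had 93 reads (7.11 CPM) against 250 (12.6 CPM), a log2 ratio of -0.82 (-1.18 to -0.47). PTPN14, a phosphatase that binds YAP1 and is itself a YAP/TEAD target, had 1115 (85.2 CPM) against 2367 (119 CPM), a log2 ratio of -0.48 (-0.59 to -0.38). The LIM-domain proteins AJUBA and LIMD1, which sequester LATS, had log2 ratios of -0.42 (-0.63 to -0.23) from 307 and 626 reads and -0.25 (-0.35 to -0.15) from 1274 and 2304 reads. AMOT and PTPN14 had the lowest ratios of this role. AMOTL2, an angiomotin relative that is also a target gene, had 565 and 971 reads and -0.18 (-0.33 to -0.03). VGLL4, which competes with YAP1 for TEAD, had 866 and 1442 reads and -0.13 (-0.26 to -0.01). The last 2 intervals came close to a ratio of 1, and with upper-quartile scaling both spanned it, as did that of VGLL4 with the control library thinned. Exons of VGLL4 share bases with those of ATG7 on the opposite strand. On the same strand, exons of AJUBA share bases with those of AL132780.3, and exons of PTPN14 with those of AL929236.1. Neither of these has a count under that symbol. AMOTL1 had 7 reads in each library, too few to show a difference of any direction. AMOT and AMOTL2 differed by 0.65 (0.26 to 1.04).

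Some of these genes hold the 7-base sequence GTGAGAA in the 3′ UTR. Of the measured members 11.4% hold it, against 16.4% of all measured genes with an annotated 3′ UTR. The sequence was searched because lower ratios of the genes that hold it were already known in these same libraries, so it is no independent observation. In GENCODE 29 it occurs in the longest annotated 3′ UTR of 5 of the 39 genes, once in each, and 4 of those 5 belong to the binding or restraining role. The sites are shown with 11 bases on each side from GRCh38, 5′ to 3′ on the gene's strand, with the 7 bases in capitals, because AMOT, AJUBA and LIMD1 are among the lower genes just described. They lie at chrX:112777197-112777225 (minus strand) for AMOT, chr14:22971265-22971293 (minus) for AJUBA, chr3:45680218-45680246 (plus) for LIMD1, chr11:94871284-94871312 (plus) for AMOTL1 and chr4:183286007-183286035 (plus) for WWC2.
AMOT: ccttcattaagGTGAGAAatctgcagata
AJUBA: accttgttggaGTGAGAAatgttctgaaa
LIMD1: aaagatcatgtGTGAGAAttgagcacaag
AMOTL1: tgagtgtggcaGTGAGAAgaagcatcgag
WWC2: aatcactgtttGTGAGAAactccaccgaa

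The 4 measured genes with the sequence were AMOT, AJUBA, LIMD1 and WWC2, with a median log2 ratio of -0.34 and 3 of 4 lower. The 31 measured members without it had a median of -0.15, and 17 were lower. Over all genes measured with an annotated 3′ UTR, the 1772 with the sequence had a median of -0.13 and 45.3% lower, and the 9028 without it -0.01 and 25.6% lower. Genes with the sequence have longer 3′ UTRs, with a median of 3301 bases against 1460. Among genes with a 3′ UTR of 2000 bases or more the medians were -0.14 with it and -0.05 without it. PTPN14 and CTGF, both lower, do not hold it.

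Of the 10 measured YAP/TEAD targets among the members, 6 were lower, 2 higher and 2 spanned a ratio of 1, with a median log2 ratio of -0.15. Over all genes measured, 26.1% were lower and 22% higher. The most used reporters of YAP/TEAD activity went in opposite directions. CTGF, which encodes a secreted matricellular protein, had 168 reads (12.8 CPM) against 443 (22.3 CPM), a log2 ratio of -0.80 (-1.06 to -0.54). CYR61, its relative of the CCN family, had 3655 (279 CPM) against 4830 (243 CPM), a log2 ratio of 0.20 (0.14 to 0.26). CTGF was thus lower and CYR61 higher, and their log2 ratios differed by 0.997 (0.73 to 1.27). CYR61 was also the more abundant, at 98.9 CPM per kilobase in the control library and 114 in the siHNRNPM library, against 9.53 and 5.49 for CTGF. CTGF lies on chromosome 6 from 131948176 to 131951373 (minus strand) and CYR61 on chromosome 1 from 85580761 to 85583962 (plus strand) of GRCh38.

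AXL, a receptor tyrosine kinase of the TAM family, was the most abundant target per kilobase of exon, at 153 CPM per kilobase in the control library and 132 in the siHNRNPM library. It had 8906 reads (680 CPM) against 15672 (788 CPM), a log2 ratio of -0.21 (-0.25 to -0.17). ARHGEF17 had 244 (18.6 CPM) against 501 (25.2 CPM), a log2 ratio of -0.43 (-0.66 to -0.21). ASAP1, an Arf GTPase-activating protein, had 3288 (251 CPM) against 5743 (289 CPM), a log2 ratio of -0.20 (-0.26 to -0.14). All 3 were lower. The membrane protein CRIM1 had -0.14 (-0.21 to -0.06) from 2342 and 3914 reads, and a copy of CRIM1 is annotated on an alternate sequence of the genome. Myoferlin (MYOF), a membrane repair protein, had -0.12 (-0.24 to -0.01) from 958 and 1587 reads, and its interval spanned a ratio of 1 with upper-quartile scaling and with the control library thinned.

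DLC1 was the other higher target, with 2543 reads (194 CPM) against 3385 (170 CPM) and a log2 ratio of 0.19 (0.12 to 0.27). TGFB1I1 (HIC-5), a focal adhesion protein, had 0.04 (-0.13 to 0.21) from 467 and 691 reads, and FJX1, a secreted regulator of planar polarity, had -0.17 (-0.49 to 0.15) from 131 and 224. The intervals of both spanned a ratio of 1. NUAK2, an AMPK-related kinase, had 3 and 19 reads, a log2 ratio of -2.06 (-4.46 to -0.30), but it did not reach 1 CPM in either library. ANKRD1, a nuclear ankyrin-repeat protein, had 3 and 4 reads, and RBMS3, an RNA-binding protein, 3 and 2. Neither can show a difference at this depth. Summed over the 13 targets, the reads gave a log2 ratio of -0.10 (-0.13 to -0.08), and without AXL, which held a large part of them, -0.03 (-0.06 to 0.01).

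**Figure D4:**
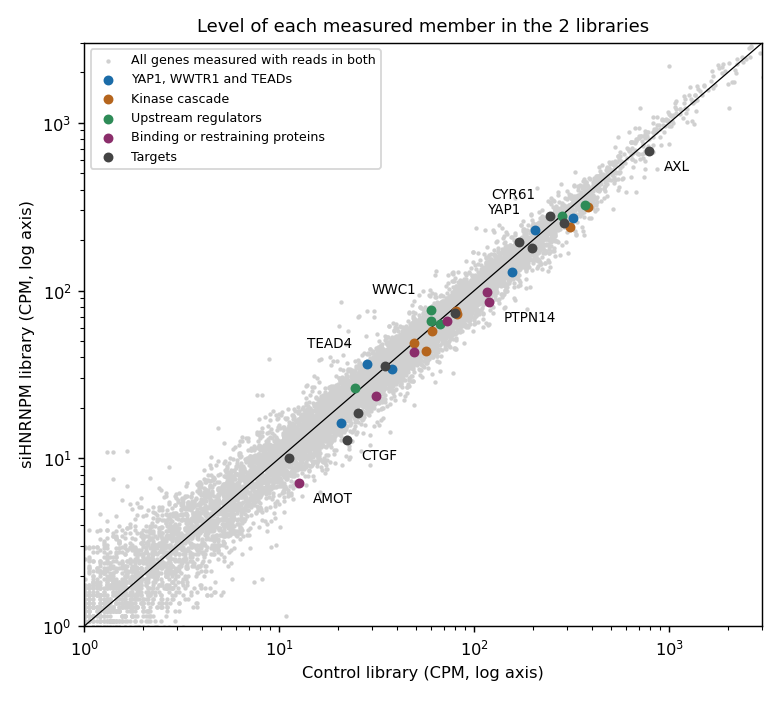
Level of each measured gene in the control library (x axis) and the siHNRNPM library (y axis) in CPM on log axes, with members coloured by role and other genes with reads in both libraries in grey; the line marks equal levels. AXL is the most abundant member by CPM, at 788 and 680, and CTGF and AMOT lie below the line at 22.3 and 12.8 and at 12.6 and 7.11.

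Promoters of the targets were set beside these values, since TEAD factors bind the sequence GGAATG. RefSeq promoters on GRCh38.p14, from 250 bases before to 50 after the start site, were matched for 30 of the 39 genes. GGAATG, on either strand, occurred in 7 of the 30 (23.3%), against 14.0% of 35116 promoters of the same length. Of the 8 target promoters matched, 3 held 2 or more copies, namely CTGF, ANKRD1 and NUAK2, against 1.37% of all promoters. No promoter was matched for the targets CYR61, DLC1, CRIM1, ARHGEF17 and ASAP1, so these were not searched. CTGF held 3, starting 169, 104 and 95 bases before the start site, and 0.128% of promoters held as many. The AP-1 sequence TGANTCA, which shares no base with GGAATG in the ANKRD1 window, occurred in 2 of the 30, namely ANKRD1 and MOB1B, against 7.71% of promoters. A match is a description of letters and not a measured binding site.

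The 250 bases before the start site are shown, 5′ to 3′ on the gene's strand, for the 3 targets with 2 or more copies and for AXL, the most read target, which had 0, with GGAATG and its reverse complement in capitals. They lie at chr6:131951373-131951622 (minus strand) for CTGF, chr10:90921088-90921337 (minus) for ANKRD1, chr1:205321746-205321995 (minus) for NUAK2 and chr19:41218973-41219222 (plus) for AXL.
CTGF: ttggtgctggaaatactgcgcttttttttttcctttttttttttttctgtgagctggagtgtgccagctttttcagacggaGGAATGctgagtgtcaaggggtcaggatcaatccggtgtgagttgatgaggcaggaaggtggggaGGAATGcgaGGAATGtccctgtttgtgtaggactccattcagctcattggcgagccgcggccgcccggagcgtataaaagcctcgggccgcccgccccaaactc
ANKRD1: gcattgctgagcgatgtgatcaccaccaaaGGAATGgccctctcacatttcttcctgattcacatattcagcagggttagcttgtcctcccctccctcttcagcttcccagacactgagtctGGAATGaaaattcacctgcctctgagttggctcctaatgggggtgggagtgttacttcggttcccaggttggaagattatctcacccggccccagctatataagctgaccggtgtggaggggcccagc
NUAK2: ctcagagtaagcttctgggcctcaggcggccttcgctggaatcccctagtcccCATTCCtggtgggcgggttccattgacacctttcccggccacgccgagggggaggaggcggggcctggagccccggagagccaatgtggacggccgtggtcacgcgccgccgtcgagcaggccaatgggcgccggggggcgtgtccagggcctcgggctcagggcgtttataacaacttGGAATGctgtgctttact
AXL: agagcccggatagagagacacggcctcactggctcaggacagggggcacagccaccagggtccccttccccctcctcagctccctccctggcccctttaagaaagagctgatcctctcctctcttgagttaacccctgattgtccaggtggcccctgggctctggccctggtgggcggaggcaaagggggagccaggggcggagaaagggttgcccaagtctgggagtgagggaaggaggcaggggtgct

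Of the 3 targets with repeated copies, CTGF alone was measured. It was lower in the siHNRNPM library, and ANKRD1 and NUAK2 had at most 19 reads. YAP1 and PTPN14 held 1 copy each, 162 and 200 bases before the start site, and had log2 ratios of 0.15 and -0.48. WWC2 held 2 copies and had -0.08, and LATS2 held 1 copy at base 10 after the start and had -0.02. Genes with the sequence thus included higher and lower ones and ones whose intervals spanned a ratio of 1.

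Other genes of the pathway were also more often lower than higher. Of 50 measured of 62 listed upstream kinases, polarity and junction proteins, STRIPAK subunits and 14-3-3 proteins, 27 were lower, 5 were higher and 18 spanned a ratio of 1, with a median log2 ratio of -0.15. The shares over all genes measured were 26.1% lower and 22% higher, and 30.9% and 23.5% among those averaging 10 CPM or more. The lower genes included RASSF5, an adaptor of STK3/4, at -1.02 (-1.50 to -0.55) from 51 and 157 reads, and STRN, a STRIPAK scaffold, at -0.50 (-0.60 to -0.40) from 1137 and 2446 reads. The 14-3-3 genes, whose proteins retain phosphorylated YAP1 in the cytoplasm, were mixed. YWHAH at 0.25 (0.16 to 0.35), YWHAQ at 0.11 (0.07 to 0.16), YWHAG at 0.10 (0.04 to 0.16) and YWHAB at 0.09 (0.03 to 0.15) were higher. YWHAE was lower at -0.32 (-0.63 to -0.01), from 131 and 248 reads, and a copy of it is annotated on an alternate sequence of the genome. YWHAZ, the most read of them with 20428 and 31234 reads, had -0.01 (-0.03 to 0.02), and SFN had 0.15 (-0.04 to 0.34), so that the intervals of both spanned a ratio of 1.

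Among further known YAP/TEAD targets, genes were found on both sides of the control level. Of 20 listed, 12 were measured, of which 6 were higher, 4 were lower and 2 spanned a ratio of 1, with a median log2 ratio of 0.21, beside the same 26.1% lower and 22% higher over all genes. With the control library thinned, 4 were higher and 4 lower. The tissue factor gene F3 had 1141 reads against 977, a log2 ratio of 0.83 (0.70 to 0.95), and the stress gene GADD45A had 2373 against 2298, a log2 ratio of 0.65 (0.57 to 0.73). Both values were known when the list was written. CDC42EP3, a Cdc42 effector, had 82 reads in each library, a log2 ratio of 0.60 (0.14 to 1.06). The lower genes included the extracellular gene CCDC80 at -0.80 (-1.10 to -0.50), from 128 and 338 reads, DOCK5, a guanine nucleotide exchange factor, at -0.31 (-0.41 to -0.22), and caveolin 1 (CAV1) at -0.21 (-0.38 to -0.04).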

How the data were processed

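The authors deposited unnormalized read counts (whole numbers, by gene symbol) for 1 control and 1 siHNRNPM library. HISAT2 2.0.4 and GRCh38 are listed per the submitters' processing notes; the read counter, annotation, strand use and treatment of multi-mapped reads are not given in the sources used here, so reads of overlapping, antisense and near-identical genes cannot be told apart. Counts were scaled by TMM (edgeR 4.0.16, R 4.3.3), and a gene was kept if either library reached a CPM of 1. The log2 ratio of siHNRNPM over control has an exact Clopper-Pearson 95% interval from the split of a gene's reads (SciPy 1.17.1), which covers counting error only. PCR copies are not independent molecules, so the interval can be too narrow even for that error. No test was possible with 1 library per group. The procedure was tested on simulated data with counting error only and with changes larger than those of the measured members. That simulation does not cover variation between replicate libraries. Exon lengths, 3′ UTRs and positions came from GENCODE 29, promoters from RefSeq.

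Every member was named, and from the 2 further lists up to 3 genes in each direction with the largest log2 ratio among those with 20 or more reads whose interval excludes a ratio of 1. One gene that this rule named is not reported here. The members and lists were chosen with earlier results of these data known. Pairs of related genes were compared by the odds ratio of their reads, and 14 pairs were compared, of which 9 had an interval that excludes 0. Alternatives covered scaling, filters, depth and interval level.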

Additional observations from a re-analysis of the deposited data

How the results depend on the processing

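The count of lower members ranged from 17 to 21 and that of higher members from 5 to 6 under total-count, DESeq2 and upper-quartile scaling, no CPM filter, a CPM of 5 or more, a thinned control library, a 99% interval, and without genes that have an alternate copy or hold the 7-base sequence. Removing the CPM filter or leaving out such genes also changes how many members are counted. The median log2 ratio of members ranged from -0.17 to -0.13 under these settings other than the 99% interval, which does not change it. Over all genes the median ranged from -0.02 with DESeq2 scaling to 0.02 with upper-quartile scaling. With these 2 scalings the members' medians were -0.17 and -0.13. No member was at least 2-fold lower at first; 1 was without a CPM filter, 1 with the control library thinned, and 2 were at least 1.5-fold lower. In the first 2 cases this was NUAK2, on 3 reads against 19, or 14 after thinning. No member called higher or lower changed direction; LATS2 and FRMD6, whose intervals span a ratio of 1, went to 0.01 and 0.02 with upper-quartile scaling, and FRMD6 to 0.02 with thinning. With upper-quartile scaling AMOTL2, VGLL4 and MYOF no longer differed from a ratio of 1 beyond counting error, and with thinning NF2, VGLL4 and MYOF did not, while TEAD3 and SAV1 then did. Every other measured member kept its call under these scalings and with thinning. Of the further 12 targets measured, 6 were called higher and 4 lower, and 4 and 4 with thinning. Depth limits AMOTL1, ANKRD1, NUAK2 and RBMS3, where 3 counts equal 0.229 CPM (siHNRNPM) and 0.151 CPM (control). No paired analysis was possible because each group has 1 library.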
